A study of Mus musculus with 3 samples.

Results

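The genes described here are 10 cytokine genes chosen by name, out of 55536 annotated genes. They are Il6 and Lif of the interleukin-6 family, Il10, the interleukin-12 family genes Il12a, Il12b, Il23a, Il27 and Ebi3, and the related genes Il15 and Il33. Their transcripts were measured by total RNA sequencing after ribosomal RNA depletion, in cytosolic RNA of macrophages derived from bone marrow, which are primary cells cultured from C57BL/6J mice. Lipid A, the lipopolysaccharide moiety sensed by TLR4, had been given at 100 ng/ml for 12 h. After a wash-out of 12 h the cells received a second dose of 100 ng/ml and were taken 20 min later. All 3 libraries belong to this 1 group and are numbered as biological replicates 1, 2 and 3 under a single donor identifier, so the errors measure the spread between these libraries, which may be partly technical. Age and sex were not recorded. No untreated cells or other time points were analysed here, so the values are levels and not responses to Lipid A.

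Cytokines of these families are secreted proteins by which macrophages instruct other cells. IL-6 and LIF signal through the shared receptor chain gp130, IL-10 restrains inflammatory gene expression through STAT3, and IL-15 sustains natural killer cells and memory T cells. IL-12, IL-23, IL-27 and IL-35 are each built from a pair of subunits encoded by separate genes. The p40 subunit (Il12b) joins p35 (Il12a) in IL-12 and p19 (Il23a) in IL-23, while EBI3 joins p28 (Il27) in IL-27 and p35 in IL-35. IL-33, of the IL-1 family, is best known as an alarm signal of epithelial and stromal cells.

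Promoter windows of 250 bases upstream of the start site were taken from RefSeq (GRCm38.p6), which held 8 windows for 6 of the 10 genes. Those of Il6 and Il12b are shown because these genes are known for control by NF-kB and C/EBP factors in macrophages, and that of Ebi3 because its transcript was the most abundant of the 10. They are printed 5′ to 3′, with every match to a searched motif in capitals.
Il6, chr5:30012864-30013113, plus strand: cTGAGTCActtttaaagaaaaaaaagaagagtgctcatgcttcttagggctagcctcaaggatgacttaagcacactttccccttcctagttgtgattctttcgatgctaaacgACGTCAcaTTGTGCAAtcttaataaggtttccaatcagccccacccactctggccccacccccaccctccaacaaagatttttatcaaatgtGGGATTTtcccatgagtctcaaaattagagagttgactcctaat
Il12b, chr11:44399813-44400062, plus strand: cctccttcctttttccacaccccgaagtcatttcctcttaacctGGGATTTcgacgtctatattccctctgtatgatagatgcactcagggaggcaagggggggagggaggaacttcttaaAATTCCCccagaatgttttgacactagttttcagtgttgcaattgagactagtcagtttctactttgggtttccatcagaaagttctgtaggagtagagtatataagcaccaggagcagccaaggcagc
Ebi3, chr17:55952373-55952622, plus strand: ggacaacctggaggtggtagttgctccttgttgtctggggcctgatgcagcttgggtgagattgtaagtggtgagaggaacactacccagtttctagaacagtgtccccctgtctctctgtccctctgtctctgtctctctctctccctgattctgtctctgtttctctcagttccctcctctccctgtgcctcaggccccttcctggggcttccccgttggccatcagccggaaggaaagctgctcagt

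The motifs searched, on both strands, were the NF-kB core GGGANTT, the C/EBP motif TTGCNNAA, the AP-1 motif TGANTCA, the cAMP response element core TGACGT, the interferon regulatory factor motif GAAANNGAA and the TATA motif TATAAA. In the Il6 window, the AP-1 motif (TGAGTCA) matched 249 to 243 bases before the start site and the cAMP response element core (ACGTCA, minus strand) 136 to 131 bases before it. The C/EBP motif (TTGTGCAA, minus strand) matched 128 to 121 bases and the NF-kB core (GGGATTT) 44 to 38 bases before the start site of Il6. The Il12b window held the NF-kB core in 2 places, 206 to 200 bases (GGGATTT) and 129 to 123 bases (AATTCCC, minus strand) before the start site. The Ebi3 window held none of the 6 motifs as spelled here. Of 32851 RefSeq promoter windows of this length, 14.4% held GGGANTT, 9.56% TTGCNNAA, 6.75% TGANTCA, 6.47% TGACGT, 7.13% GAAANNGAA and 12.4% TATAAA. A match describes the letters of the window and does not show binding.

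Cytokine transcripts often carry the pentamer ATTTA in the 3′ untranslated region, where it forms the core of the AU-rich elements bound by mRNA decay and stability factors. In the annotated 3′ untranslated region of the main coding transcript, 7 of the 10 genes held at least 5 ATTTA, namely Il6, Il10, Il12a, Il12b, Il23a, Il27 and Lif. Of 9287 protein-coding genes with a mean of at least 1 TPM (transcript abundance per length, scaled to the same total in each library), 18.8% did so. Il6, Il12a, Il23a, Il33 and Lif had means under 1 TPM and lie outside that set, so the 2 shares cover unlike genes. Il27 was the densest, with 5 ATTTA in 285 nt (17.5 per kb), followed by Il6 with 6 in 427 nt (14.1 per kb) and Il12a with 6 in 493 nt (12.2 per kb). Ebi3 (245 nt) and Il15 (282 nt), the most abundant transcripts of the 10, held 1 ATTTA each, which is also the median over the 9287 genes. Their regions are short beside the median length of 919 nt. By density, Ebi3 (4.08 per kb) and Il15 (3.55 per kb) lay above the median of those genes, of which 11.6% had 4 or more per kb. Both were also denser than Lif, with 7 in 3180 nt (2.20 per kb). Il33 held 3 in 1663 nt. The nonamer TTATTTATT was present in Il12a, Il23a, Il27 and Lif, 4 of the 10 genes, against 6.74% of the 9287 genes. Of these 4, only Il27 lies in that set. The windows of 30 bases that hold the most ATTTA are printed 5′ to 3′ for 3 genes rich in the pentamer and, beside them, for Ebi3 and Il15, with coordinates on mm10 and ATTTA in capitals.
Il6, chr5:30019677-30019706, plus strand: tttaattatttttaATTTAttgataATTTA
Il12b, chr11:44413473-44413502, plus strand: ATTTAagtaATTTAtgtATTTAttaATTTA
Il27, chr7:126589090-126589119, minus strand: ccagatATTTAtttcttggatATTTATTTA
Ebi3, chr17:55956959-55956988, plus strand: ggtgcggggctttgtgaactttgtgATTTA
Il15, chr8:82331704-82331733, minus strand: acttatttttgcttgcttatttttaATTTA

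The libraries held 32055937, 43616634 and 47864978 expected counts on annotated genes in replicates 1, 2 and 3. Of the macrophage markers, 8 of 8 reached 1 TPM in every library, with lysozyme Lyz2 the highest at 3120.4 ± 176 TPM (SD, n = 3). Summed TPM per library ranged over 7.68 to 15.4 for 6 neutrophil markers, 0.70 to 1.23 for 6 dendritic cell markers, 0.20 to 0.26 for 5 mast cell and basophil markers, 0.060 to 0.22 for 5 T and NK cell markers, 1.13 to 2.55 for 4 B cell markers and 0.770 to 1.67 for 6 stromal and endothelial markers. The highest of each of these lists were S100a9 (mean 6.46 TPM), Ccr7 (0.763 TPM), Kit (0.210 TPM), Lck (0.0667 TPM), Cd79b (1.70 TPM) and Pecam1 (0.983 TPM). The neutrophil marker Ly6g, the dendritic cell marker Cd209a, the mast cell marker Tpsb2 and the stromal marker Pdgfra had 0 counts in every library. In bulk RNA, fewer cells that express a gene and less RNA per expressing cell cannot be told apart.

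Ebi3 and Il15 were the abundant cytokine transcripts of these restimulated macrophages, Il10 and Il27 were at moderate to low levels, and Il12b and Il6 were near 1 TPM. Il12a, Lif, Il23a and Il33 were at the limit of detection, with under 10 expected counts in every library. At 1 TPM or more in every library stood 4 of the 10 genes (Ebi3, Il15, Il10 and Il27), against 41.3% of 22028 protein-coding genes, so the share of these cytokine genes at that level was near the background.

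**Figure D1:**
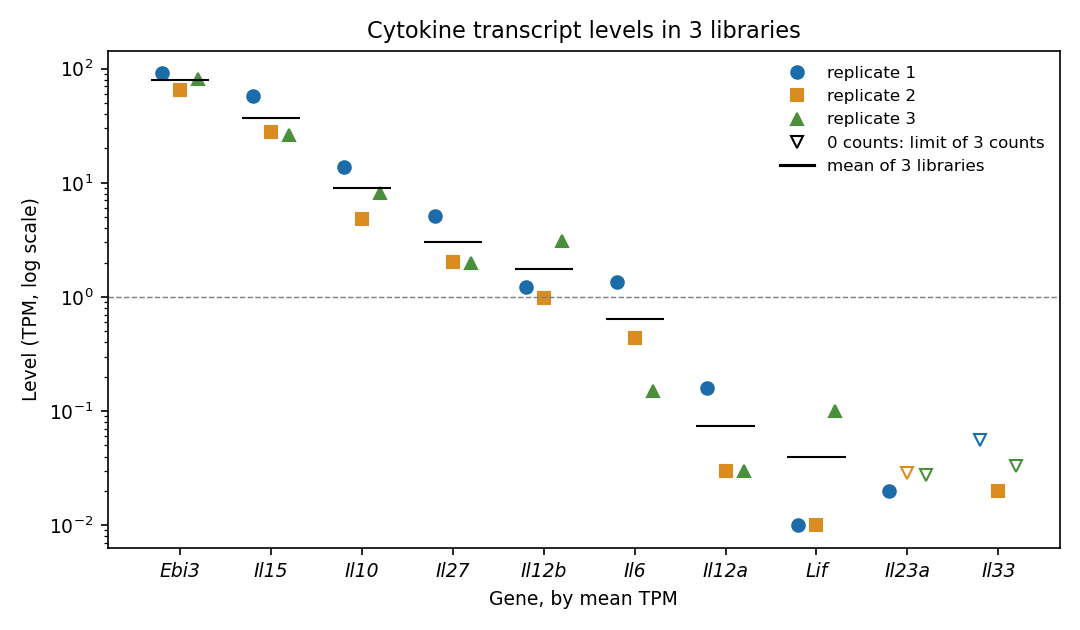
Level of each of the 10 cytokine genes in the 3 libraries, in TPM on a log axis, with genes ordered by mean. Filled symbols are libraries, horizontal bars are means of 3 libraries, open triangles are the TPM that 3 counts would give in libraries with 0 counts, and the dashed line is 1 TPM. Ebi3 lies between 65.3 and 90.9 TPM, above Il15 in every library, and the 4 genes at the right lie at or below 0.16 TPM.

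Ebi3 (ENSMUSG00000003206.7; mm10 chr17:55952640-55957022, plus strand) encodes the subunit shared by IL-27 and IL-35. It had 90.9, 65.3 and 80.7 TPM in replicates 1, 2 and 3, from 4190, 4867 and 6248 expected counts. The mean of 79.0 ± 12.9 TPM (SD, n = 3) placed it 578th among 22028 protein-coding genes, and replicate 2 was the lowest library. The antisense gene Gm16712 shares 2252 bases with Ebi3 and had 67, 50 and 56 expected counts. Whether reads were counted by strand is not given, so reads of this pair may not be told apart. All Ebi3 counts lay on its single annotated transcript, Ebi3-201.

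Il15 (ENSMUSG00000031712.10; mm10 chr8:82331632-82403222, minus strand) encodes a cytokine that is carried to other cells on its own receptor chain, IL-15Rα. Its levels were 57.8, 27.7 and 26.0 TPM in replicates 1, 2 and 3, from 2063, 1531 and 1610 expected counts. Replicate 1 stood apart from the other two libraries, which were close to each other. The mean was 37.2 ± 17.9 TPM (SD, n = 3), rank 1237 among protein-coding genes.

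Il10 (ENSMUSG00000016529.5; mm10 chr1:131019845-131024974, plus strand), the anti-inflammatory cytokine of the set, had 13.9, 4.83 and 8.11 TPM in replicates 1, 2 and 3. These rested on 748, 421 and 733 expected counts and gave a mean of 8.94 ± 4.58 TPM (SD, n = 3), rank 4388. On the log scale, replicate 3 lay midway between replicate 1, the highest, and replicate 2, the lowest.

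Il27 (ENSMUSG00000044701.5; mm10 chr7:126589010-126594941, minus strand), which encodes p28, had 5.12, 2.02 and 1.99 TPM in replicates 1, 2 and 3, from 202, 129 and 132 expected counts. As for Il15, replicate 1 was high and the other two libraries nearly equal. The mean of 3.04 ± 1.80 TPM (SD, n = 3; rank 7423) was 2.00 TPM without replicate 1. The 3′ end of Il27 shares 103 bases with the end of Apobr on the opposite strand. Apobr had 2709, 5143 and 5432 expected counts, or 17.3, 20.1 and 20.0 TPM. As strand counting is not given, reads in the shared bases may not be told apart, and the part of Apobr reads in the Il27 level was not tested.

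Il12b (ENSMUSG00000004296.14; mm10 chr11:44400063-44414033, plus strand), the p40 gene, had 1.21, 0.970 and 3.11 TPM in replicates 1, 2 and 3, from 99, 127 and 424 expected counts. Replicate 3 was high, in contrast to the 4 genes above, and its mean of 1.76 ± 1.17 TPM (SD, n = 3) was 1.09 TPM without that library. Il6 (ENSMUSG00000025746.11; mm10 chr5:30013114-30019981, plus strand) had 1.35, 0.440 and 0.150 TPM, from 62, 27 and 11 expected counts. The exact Poisson 95% intervals of these Il6 counts, which cover counting error only, were 47.5 to 79.5, 17.8 to 39.3 and 5.49 to 19.7. The intervals of replicate 1 and of the other two libraries did not overlap. The Il6 mean of 0.647 ± 0.626 TPM (SD, n = 3) was 0.295 TPM without replicate 1.

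The remaining genes gave too few counts to order. Il12a (ENSMUSG00000027776.12; mm10 chr3:68690644-68698547, plus strand) had 6, 1 and 1 expected counts in replicates 1, 2 and 3, or 0.16, 0.030 and 0.030 TPM. Lif (ENSMUSG00000034394.14; mm10 chr11:4257557-4272514, plus strand) had 2, 3 and 9 expected counts, or 0.010, 0.010 and 0.10 TPM. The Lif level in replicate 3 was raised by 1 count on a short processed transcript of 390 nt, Lif-203, which took 72.59% of the gene's TPM there. Il23a (ENSMUSG00000025383.2; mm10 chr10:128296139-128298752, minus strand) had 1 count in replicate 1 and 0 in the other two libraries, where 3 counts would have been 0.0284 and 0.0273 TPM. Il33 (ENSMUSG00000024810.16; mm10 chr19:29925114-29960718, plus strand) had 1 count in replicate 2 and 0 in the other two libraries, where 3 counts would have been 0.0555 and 0.0331 TPM. These values are upper limits for libraries with 0 counts and cover counting error in the first quantification only, so the transcripts were not shown to be absent. In the second quantification Il23a exceeded them, with 33 and 38 counts in replicates 2 and 3 (0.138 and 0.122 TPM).

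Among neighbours in the order, Ebi3 and Il15 were apart, as the lowest Ebi3 library (65.3 TPM) exceeded the highest Il15 library (57.8 TPM). Il15 and Il10 were apart as well, at 26.0 TPM in the lowest Il15 library and 13.9 TPM in the highest Il10 library. Il10 exceeded Il27 in 3 of 3 libraries, although the lowest Il10 value of 4.83 TPM lay under the highest Il27 value of 5.12 TPM. After scaling by TMM factors, which bring libraries to a common level over most genes, these ranges no longer overlapped. Il27 exceeded Il12b in 2 of 3 libraries and Il12b exceeded Il6 in 2 of 3, so that these neighbours did not differ beyond their spread. The shift that TMM scaling made over all genes was -0.09, 0.08 and 0.01 log2 units in replicates 1, 2 and 3.

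Most of the measurable cytokine transcripts were highest in replicate 1, with Il12b as the exception. Of the 6 genes with enough counts to be tested, Il6, Il10, Il27, Ebi3 and Il15 were highest in replicate 1 after TMM scaling, 5 of 6, against 35.0% of 12372 tested genes. For Ebi3 the lead of replicate 1 over the next library, replicate 3, was only 1.05-fold. In unscaled TPM 53.2% of tested genes were highest in replicate 1, which was also the shallowest library. Between the highest and the lowest library, TMM-scaled levels differed 8.42-fold for Il6, 3.04-fold for Il12b, 2.55-fold for Il10, 2.41-fold for Il27, 2.08-fold for Il15 and 1.24-fold for Ebi3. Of the 5 genes with a mean of at least 1 TPM, 4 differed at least 2-fold, against 6.43% of 9983 genes.

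**Figure D2:**
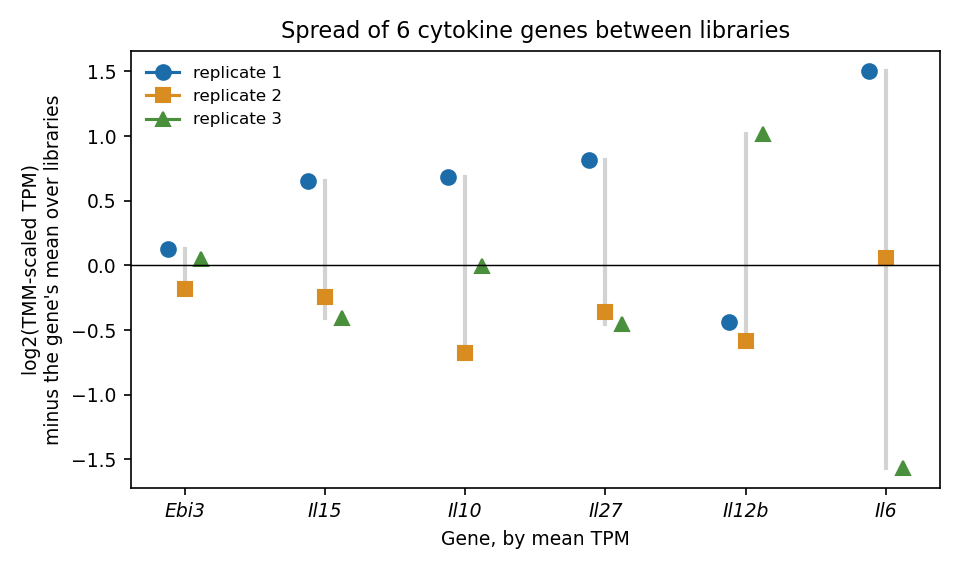
Difference of each library from the gene's mean over 3 libraries, in log2 units of TMM-scaled TPM, for the 6 cytokine genes with enough counts to be tested. Symbols are libraries and grey lines join the highest and the lowest. Replicate 1 is the highest library of 5 genes, replicate 3 that of Il12b, and Ebi3 has the smallest range (1.24-fold).

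The coefficient of variation of TMM-scaled TPM over the 3 libraries was 10.8% for Ebi3, under the median of 11.4% over 9983 genes with a mean of at least 1 TPM. It was 42.2% for Il15, 45.7% for Il10, 53.2% for Il27 and 66.9% for Il12b, above 95.8%, 96.3%, 97.3% and 98.2% of those genes. Il6, with a mean under 1 TPM, had 91.8%. Counting noise did not cover the spread of any of the 6 genes. In edgeR's likelihood ratio test with the dispersion set to 0, 6 of 6 passed, with adjusted p = 5.42e-114 for Il15, 8.6e-53 for Il10, 3.37e-39 for Il12b, 3.28e-24 for Ebi3, 2.52e-16 for Il27 and 4.98e-15 for Il6. The background was high, as 71.1% of 12372 genes passed the same test, so passing it does not set these genes apart. It compares these 3 libraries, not conditions.

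Single libraries decided some of these calls. Without replicate 1, Il27 (adjusted p = 0.694) and Il15 (adjusted p = 0.394) no longer differed beyond counting noise in the edgeR test, that is, between replicates 2 and 3. Il12b was not called without replicate 3 (adjusted p = 0.485), nor Ebi3 without replicate 2 (adjusted p = 0.144). Il10 was called in each of the 3 pairs of libraries, with adjusted p between 2.01e-55 and 5.89e-14. The high Il12b value of replicate 3 stood beside the highest summed neutrophil markers (7.68, 9.52 and 15.4 TPM in replicates 1, 2 and 3) and the highest summed B cell markers (1.13, 1.54 and 2.55 TPM) of the 3 libraries. The neutrophil sum was carried by S100a8 and S100a9, with Ly6g at 0 counts and Elane and Mpo at or below 0.050 TPM, and the B cell sum by Cd79b (1.06, 1.51 and 2.52 TPM), with Cd79a at 0.020 TPM in each library. Dendritic cell markers summed to 1.17, 0.70 and 1.23 TPM, mostly Ccr7 (0.94, 0.51 and 0.84 TPM). Siglech had 0.030, 0.060 and 0.20 TPM (2, 9 and 23 counts) and Flt3 0.020, 0.020 and 0.050 TPM (3, 6 and 13 counts). Xcr1 (0.090, 0.060 and 0.070 TPM) and Zbtb46 (0.090, 0.050 and 0.070 TPM) were highest in replicate 1, and Cd209a had 0 counts. Replicate 3 was also the highest library of the macrophage markers Adgre1 (679, 477 and 766 TPM) and Csf1r (131, 134 and 179 TPM). The same held for Mertk (41.4, 33.4 and 46.7 TPM), while Lyz2, Cd68, Fcgr1, Spi1 and Itgam were highest in replicate 1. The part of neutrophils, B cells or dendritic cells in the Il12b level was not tested.

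Subunit transcripts of the heterodimeric cytokines were far from equal. In each pair the receptor-like subunit, EBI3 or p40, had the higher transcript level in every library. For IL-27, the TPM ratio of Ebi3 over Il27 was 17.8, 32.3 and 40.6 in replicates 1, 2 and 3, with a mean log2 ratio of 4.84 ± 0.62 (SD, n = 3), or 28.5-fold. Its lowest value was in replicate 1, the library with the highest Il27 level.

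**Figure D3:**
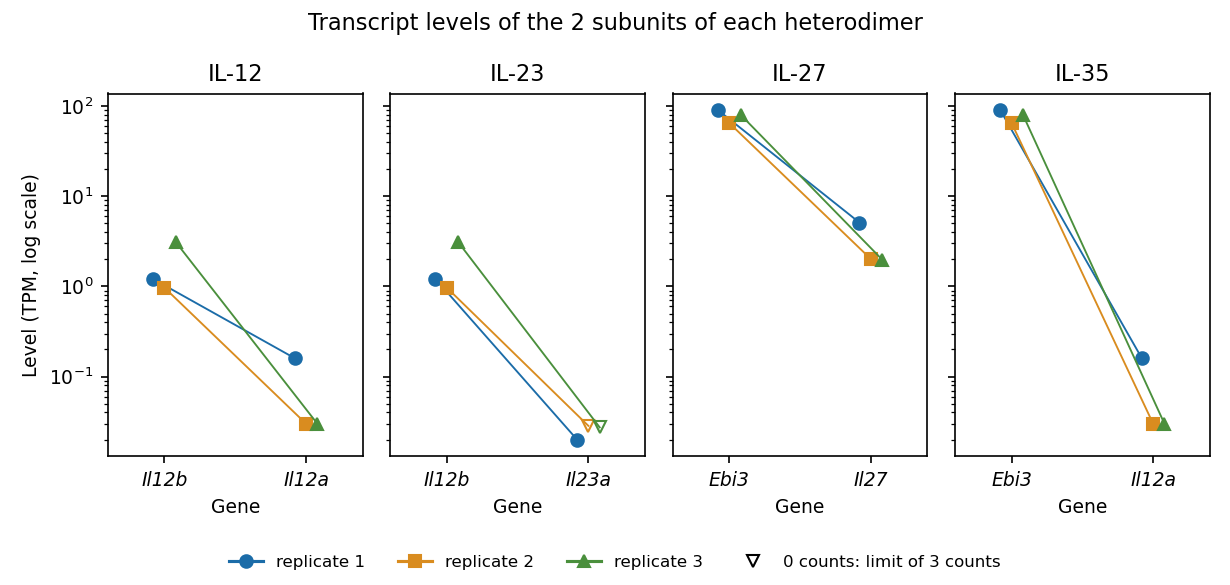
Levels of the 2 subunits of IL-12, IL-23, IL-27 and IL-35 in each library, in TPM on a log axis, with lines joining the same library. Open triangles are the TPM of 3 counts in libraries with 0 counts. Every line falls from the receptor-like subunit at the left to its partner at the right.

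The other pairs rest on few counts of the partner and are given over the 3 libraries together. For IL-12, Il12b had 650 expected counts and Il12a 8, a ratio per length of 26.5 (95% interval of the ratio, 13.4 to 61.7). The intervals of these ratios are exact binomial intervals of the share of 1 gene in the counts of both, scaled by length. The TPM ratio of single libraries was 7.56, 32.3 and 104 in replicates 1, 2 and 3, of which the lowest and the highest lie outside that interval. The mean log2 ratio of 4.88 was 5.86 without replicate 1 and 3.97 without replicate 3. For IL-23, Il12b had 650 and Il23a 1, a ratio per length of 499 with an interval of 89.2 to 19737. That value holds for the first quantification alone, since the second, which gave Il23a 78 counts in all, put the TPM ratio at 14.2, 4.07 and 12.2 in replicates 1, 2 and 3. For IL-35, Ebi3 had 15306 and Il12a 8, a ratio per length of 1101 with an interval of 558 to 2549.8. By TPM the ratio was 568, 2175 and 2691 in replicates 1, 2 and 3, of which that of replicate 3 lies above the interval. The intervals cover counting error only. Of the 8 Il12a counts, 4.67 lay on the coding transcript Il12a-202, in replicate 1, and the single counts of replicates 2 and 3 were assigned to the retained-intron transcript Il12a-203.

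Il15 was spread over many of its 10 annotated transcripts. Il10, Il27 and Ebi3 have 1 annotated transcript each, and all counts of Il12b were assigned to Il12b-201, 1 of its 2. The protein-coding Il15-202 was the largest, at 38.85%, 35.31% and 44.37% of the gene's TPM in replicates 1, 2 and 3. Among the other coding transcripts, Il15-205 held 10%, 17.23% and 11.65%, and Il15-203 held 13.13%, 9.71% and 7.2%. Il15-209, annotated as a target of nonsense-mediated decay, held 10.85%, 10.40% and 9.57%, and the processed transcript Il15-207 held 13.54%, 9.97% and 5.27%. The shares of Il15-207, which is 234 nt long, rest on 13.8, 8.46 and 4.12 expected counts, too few to fix them.

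**Figure D4:**
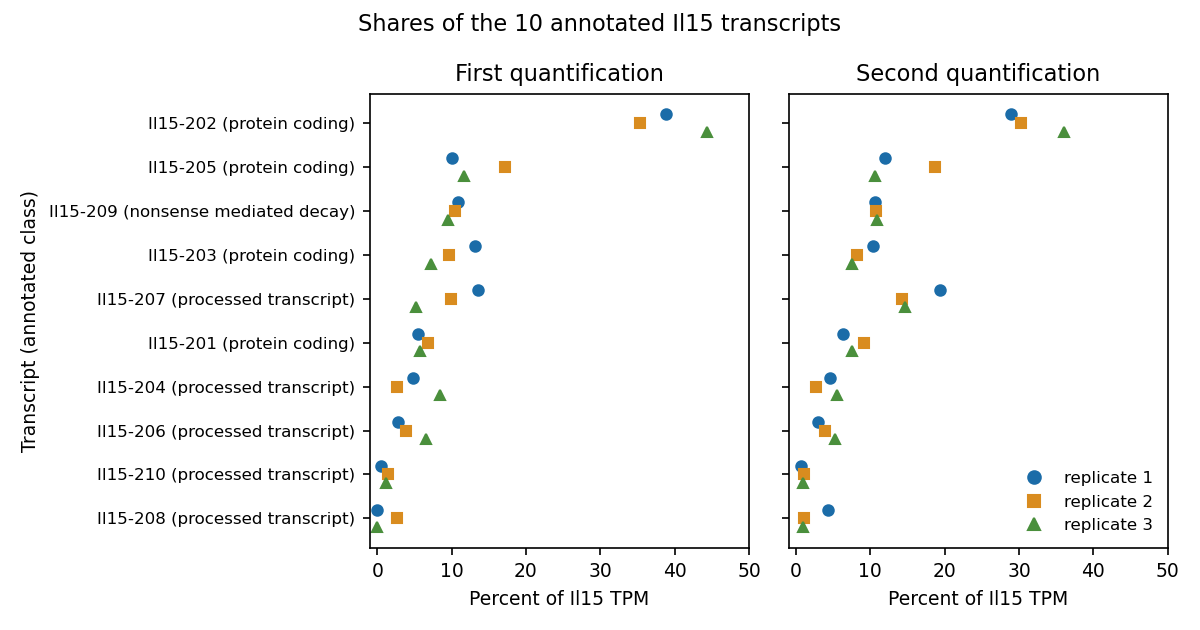
Share of each of the 10 annotated Il15 transcripts in the gene's TPM, in percent, in the first quantification (left) and the second (right), with a symbol for each library. Il15-202 is the largest in every library of both, and Il15-207 lies higher in the second.

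Summed by class, the 4 coding transcripts held 68.5 ± 0.891% of Il15 TPM (SD, n = 3), the 5 processed transcripts 21.3 ± 0.602% and the 1 decay target 10.3 ± 0.648%. For the same libraries, the second quantification put the coding share at 61.9 ± 4.32% and the processed share at 27.3 ± 4.38%. Coding transcripts held 1819.8, 1342 and 1394 of the expected counts in the first quantification, because the processed transcripts are short and weigh more in TPM than in counts. The coding share was 67.4% in replicate 1, the library with the high Il15 level, and 69.0% and 68.9% in replicates 2 and 3.

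For Il6 the counts were too few to fix the transcript. Il6-201 held 98.99%, 63.06% and 40.98% of Il6 TPM in replicates 1, 2 and 3, Il6-202 held 34.85% in replicate 2 alone and Il6-204 held 52.82% in replicate 3 alone. The second quantification gave Il6-201 72.8%, 76.9% and 0%, and Il6-204 26.3%, 0% and 75.0%. In replicate 3 these shares divide 11 expected counts.

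The quantifications differed most for Il23a. The second gave 7, 33 and 38 estimated counts for Il23a in replicates 1, 2 and 3, where the first gave 1, 0 and 0. Of these, 6.14, 32.9 and 37.9 were on Il23a-202, a retained-intron transcript, which is not annotated as coding for p19. Il27 had 309, 166 and 177 counts in the second and 202, 129 and 132 in the first, ratios of 1.53, 1.29 and 1.34 beside medians of 1.10, 1.06 and 1.07 over 9924 genes. The Ebi3 ratios of 1.06, 1.05 and 1.04 and the Il10 ratios of 1.09, 1.09 and 1.04 lay close to the medians. TPM values of the second quantification were lower for most genes, with median ratios to the first of 0.503, 0.550 and 0.439.

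**Figure D5:**
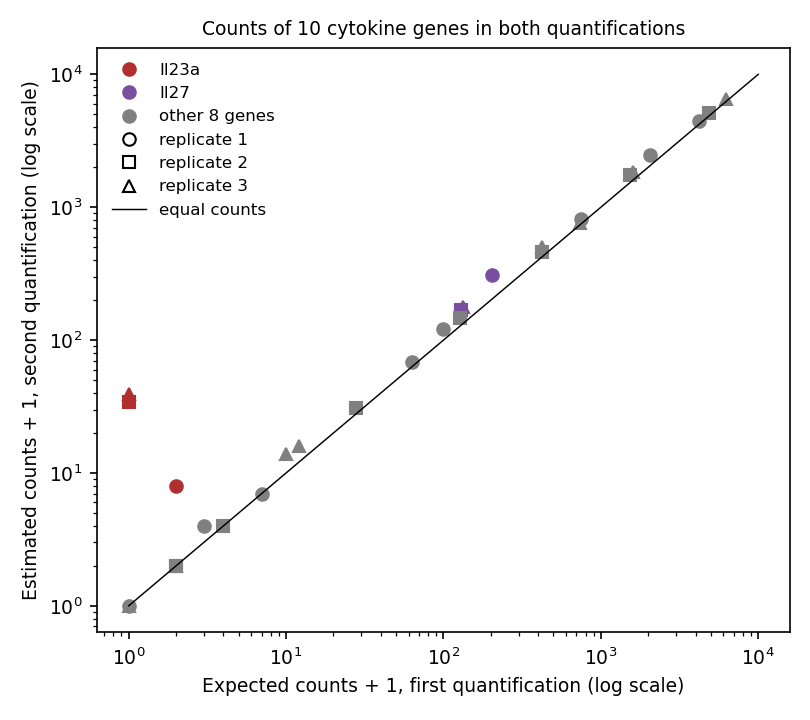
Counts of each of the 10 cytokine genes in the second quantification against the first, plus 1, on log axes, with a symbol for each library and a line at equal counts. Il23a lies above the line at 7 to 38 counts in the second against 0 or 1 in the first, Il27 lies slightly above it and the other 8 genes lie near it.

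Other ligands of these families were mostly at or near 0. Of 15 such genes, 1 reached 1 TPM in every library, the IL-6 family gene Osm at 2.71, 4.23 and 3.65 TPM in replicates 1, 2 and 3. Il7 followed, low but detected, with a mean of 0.32 TPM from 72, 41 and 48 expected counts, and Il4 with 0.16 TPM. The genes Ctf1, Il19, Il20, Il22, Il24, Il9 and Il21 had 0 counts in every library.

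Receptor chains of the cytokines ranged from abundant to near 0. Of 14 chains, 9 reached 1 TPM in every library; the median of the list was 6.59 TPM. Il2rg, the common gamma chain used by IL-15, was the highest at 127 ± 38.8 TPM, and both chains of the IL-10 receptor followed, Il10rb at 108 ± 9.49 TPM and Il10ra at 39.9 ± 6.57 TPM (SD, n = 3 each). The IL-15 carrier chain Il15ra had 18.6, 6.77 and 9.07 TPM in replicates 1, 2 and 3. It was highest in replicate 1, as were Il15, Il2rg, Il10rb, Il10ra and, in unscaled TPM, 53.2% of tested genes. Il2rb, the signalling chain that IL-15 also needs, averaged 0.0333 TPM, and Lifr, the LIF receptor chain, 0.457 TPM; both are named after their values were seen. The lowest were Il27ra, the specific chain of the IL-27 receptor, and Il1rl1, the IL-33 receptor, each at a mean of 0.030 TPM.

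Of 11 JAK kinases, STAT factors and SOCS inhibitors that act downstream of these receptors, 10 reached 1 TPM in every library. The kinase Jak1 stood at 36.2 ± 3.73 TPM and Stat3, the factor used by IL-6 and IL-10, at 26.9 ± 6.01 TPM (SD, n = 3 each). The lowest were the feedback inhibitor Socs1 at 3.75 TPM and Stat4, which responds to IL-12 in lymphocytes, at 0.523 TPM.

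Transcripts of listed factors known to act on promoters or transcripts of genes in the set were detected throughout. Their proteins and their action in these cells were not tested. Among 22028 protein-coding genes, 41.3% reached 1 TPM in every library. All 14 transcription factors listed reached 1 TPM in every library, with Atf3 (89.2 ± 28.1 TPM), a repressor of Il6 and Il12b, Maf (87.2 ± 9.36 TPM), an activator of Il10, and Irf5 (62.0 ± 13.8 TPM) the highest. The lowest were Cebpd (2.38 TPM) and Batf3 (2.20 TPM). Cebpb, a C/EBP factor known to act on Il6 and named here after its values were seen, had 47.5, 14.0 and 14.3 TPM in replicates 1, 2 and 3. All 7 mRNA-binding regulators reached 1 TPM as well. Zfp36, whose protein tristetraprolin binds AU-rich elements and promotes decay, stood at 85.7 ± 14.4 TPM, its relative Zfp36l1 at 45.1 ± 3.05 TPM and the stabilising Elavl1 at 18.6 ± 2.77 TPM (SD, n = 3 each). The lowest were Rc3h2 (6.20 TPM) and Rc3h1 (5.16 TPM), which encode the roquin proteins.

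The genes nearest in pattern were those with the smallest Euclidean distance in log2(TPM + 0.1), less its mean, over 3 libraries, among 9983 genes with a mean of at least 1 TPM. Nearest to Il10 was the interferon-inducible GTPase gene Gbp5 (distance 0.014), at 105, 37.5 and 61.9 TPM in replicates 1, 2 and 3, then Paxbp1 (0.038) and Trim30b (0.070). Nearest to Il27 was the chemokine gene Ccl4 (0.015), at 317, 127 and 125 TPM, then 1110002J07Rik (0.039) and A530032D15Rik (0.097). Il15 lay nearest to Tnfaip3 (0.028), which encodes the NF-kB inhibitor A20 and had 36.5, 17.9 and 16.5 TPM, then to Ccnd2 (0.034) and Mmp12 (0.037). For Il12b, Gm12671 and Gm10359 (both 0.049) had identical values of 1.85, 1.44 and 4.74 TPM, as near-identical copies that share reads would, so their levels are uncertain. The scavenger receptor gene Marco (0.148) came next, at 73.3, 52.7 and 179 TPM. Ebi3, nearest to Arglu1, Hccs (both 0.007) and Srsf3 (0.009), had 486 genes within a distance of 0.1, against 2 for Il12b, 4 for Il27, 5 for Il10 and 13 for Il15. The comparison rests on 3 libraries, whose depth and composition act on all genes at once, and is a description only.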

How the data were processed

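The authors deposited, for each of 3 libraries of 1 group, a gene and a transcript table laid out as RSEM output and a further transcript table laid out as kallisto output, per the file headers, on mm10 with GENCODE M21, per the deposited text. Which programs, versions and strand setting were used is not given in the sources here. The first tables hold expected counts, TPM and, per transcript, the percent of the gene's TPM, as deposited by the authors. The further tables deposited give estimated counts and TPM for each transcript, and were added up by gene as the second quantification. Of 81881 entries in a gene table, the 55536 annotated genes were kept.

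The 10 genes, 5 gene lists and 7 marker lists were chosen with earlier results of these data known. Named are the 10 genes, the 3 highest and 2 lowest of each list, the highest and any uncounted gene of each marker list, the 3 nearest genes in pattern, and transcripts at 10% or more of genes with at least 10 counts in every library. Some genes that this rule takes are not reported here. Single genes of the marker lists beyond this rule were named after their values were seen. Expected counts were rounded and tested with edgeR 4.0.16 in R 4.3.3 (TMM, filterByExpr, dispersion 0, likelihood ratio test over 2 degrees of freedom, Benjamini-Hochberg over 12372 genes, adjusted p under 0.05). A library factor leaves 0 residual degrees of freedom, so a quasi-likelihood test could not be made. The test was checked on simulated data. The common biological coefficient of variation, from the 3 libraries as 1 group, was 0.190. A count of 0 was given a one-sided limit of 3 counts, while Poisson intervals are exact and two-sided at 95%, which for a count of 0 reach 3.69. TMM-scaled TPM is counts per length over the TMM effective library size. Tables and figures were made with Python 3.11.15, numpy 2.4.6, pandas 2.3.3, scipy 1.17.1 and matplotlib 3.10.9. Alternatives were the second quantification, other scalings and thresholds, DESeq2 1.42.0 size factors, no filter on low counts and leaving out each library.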

Additional observations from a re-analysis of the deposited data

How the results depend on the processing

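No paired analysis was possible because the series has 1 group. The number of cytokine genes at 1 TPM or more in every library was 4, and 5 with TMM scaling, with TPM rescaled to protein-coding genes or at a threshold of 0.5 TPM, where Il12b was added, and 3 at 2 TPM. It was 4 in the second quantification and 4 to 5 when 1 library was left out. The number differing beyond counting noise was 6 with DESeq2 size factors, in the second quantification and at an adjusted p under 0.01, 7 without the filter on low counts (of 10 tested) and 4 to 5 when 1 library was left out, where Il6 was not tested without replicate 2. Over all genes it was 8802, between 7707 and 10759 under those settings and between 6340 and 6822 when 1 library was left out. The mean log2 ratio of Ebi3 over Il27 of 4.84 lay between 4.44 and 5.18 under every alternative run, and that of Il12b over Il12a between 3.33 and 6.59. That of Ebi3 over Il12a was 10.54, and 8.90 with 0.1 TPM added to both, which by construction pulls low values together. The log2 ratio of Il12b over Il23a has no value in libraries with 0 counts, and its TPM ratio was 4.07 to 14.2 in the second quantification. Rescaling TPM to protein-coding genes, which held 32.7%, 27.4% and 27.8% of TPM in replicates 1, 2 and 3, raised every level by 3.06 to 3.66 times. Depth limits Il12a, Lif, Il23a and Il33, whose counts cannot rank them. For Il23a the count also depended on the quantification, at 1 in the first and 78 in the second over the 3 libraries.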
